A study of Mus musculus with 4 samples.

Results

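The genes described here are 60 components of protein entry into the endoplasmic reticulum and of the vesicle coats that carry proteins onward. They were chosen by name among the 36163 gene names on the arrays, with earlier results of these data known. Each was read from its brightest probe. Each passed the filter for testing, a signal well above background on 2 or more of the 4 arrays, and 55 did so on every array. By role they comprise 8 signal recognition genes, 11 translocon genes, 5 signal peptidase genes, 13 genes of the COPII coat, 7 of the COPI coat, 14 cargo receptor genes, and the SNARE gene Sec22b with the Golgi matrix gene Golga2.

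The arrays compared stem cells with non-stem cell epithelia, both freshly sorted by FACS from submandibular glands. The mice were C57BL/6, 8 to 10 weeks old, and each population was read on 2 one-colour arrays. Which markers defined the sort was not stated in the labels, and the labels name no genotype or agent beside the strain. Levels are log2 signals relative to the 75th percentile of the array, so 0 is the level of a gene at that percentile. Differences are stem minus non-stem on this log2 scale with the standard error (SE) of limma, a linear model with moderated variances, over 2 arrays per group, and a gene is said to have fallen or risen where its p-value, adjusted over all genes tested, was under 0.05.

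A secretory cell makes most of its protein on ribosomes docked to the endoplasmic reticulum. The signal recognition particle binds a signal peptide as it leaves the ribosome and hands it to its receptor on the membrane, the Sec61 channel threads the chain through, and signal peptidase removes the signal. COPII vesicles then carry cargo from exit sites to the Golgi, and COPI vesicles return receptors and escaped resident proteins. In salivary glands this route carries the proteins of saliva, and acinar cells hold a large endoplasmic reticulum.

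Of the 60 genes, 52 fell in stem cells and 0 rose, and the other 8 did not pass the test. Over all 17306 genes tested, 16.8% fell and 14.2% rose, 31.0% in either direction. By an unadjusted p under 0.05, 0 of the 60 were higher in the main setting as well. That number was 1 with the percentile taken over detected probes and 1 with an intensity trend in the variances. The median log2 difference was -1.43 over the 60 genes and -0.01 over all genes tested. At least 2-fold falls were called for 43 of the 60, against 9.57% of all genes tested, and at least 2-fold rises for 0, against 7.05%. On 56 of the 60 both stem cell arrays lay below both non-stem arrays, against 36.3% of all genes tested. The reverse held for 1 gene, Sec61a2, against 34.7%, and in Sec23a, Sec24b and Tmed5 the groups overlapped. Sec16b and Tmed7 were well above background only on the non-stem arrays, so they could have passed the filter only by being lower in stem cells. Their sizes are therefore bounds. Without both, 50 of 58 fell and the median was -1.43, as it was over the 60 with both at their bounds. The count of 52 was 32 with no filter on dim genes, with 0 higher, where 2.13% of all genes tested were lower. Fewer of the 60, and fewer of all genes, passed as lower without non-stem replicate 1 or without non-stem replicate 2. The medians over the 60 were then -1.44 and -1.41, against 0.01 and -0.03 over all genes tested. Of 29 other tested probes of 26 genes that fell, 24 passed as lower, and the 5 that did not belong to Srprb, Ssr1, Spcs2, Arcn1 and Lman2. The labels do not say that the replicates were separate animals or separate sorts. The p-values therefore reflect the scatter among these 4 samples alone, and that scatter may be technical.

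**Figure D1:**
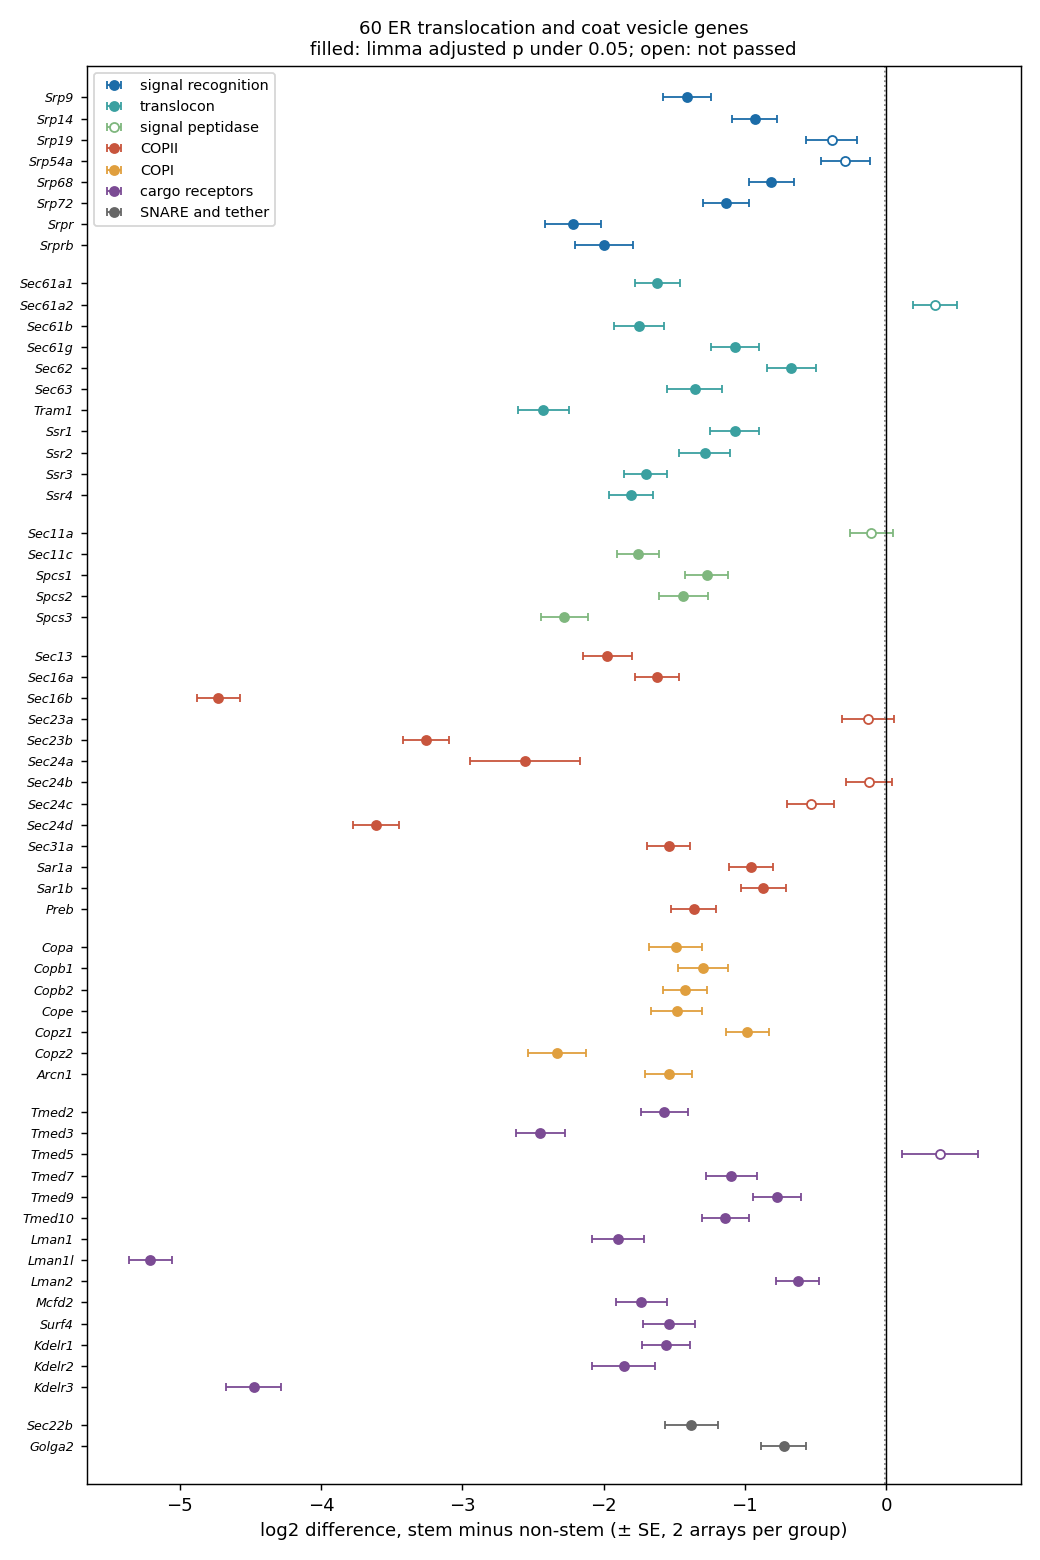
Log2 difference, stem minus non-stem, of each of the 60 genes, coloured by role, with SE bars from 2 arrays per group. Filled points passed the test and open points did not. The filled points all lie left of 0, from -5.21 for Lman1l to -0.63 for Lman2, and the dotted line marks the median of all genes tested at -0.01. The points of Sec16b and Tmed7 rest on stem signals not well above background.

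The sort groups also differed in cell markers. Of 17 tested acinar markers 10 fell and 0 rose, and their log2 summed level was 13.05 to 13.14 on the stem cell arrays and 13.76 to 13.84 on the others. Aqp5, the acinar water channel, fell by 3.19 ± 0.16, and Bhlha15, a transcription factor of secretory cells, by 2.32 ± 0.15. The other 7 acinar markers did not pass. They were Lpo (-0.50), Dcpp2 (-0.45), Car6 (-0.30), Slc12a2 (-0.27), Dcpp3 (-0.07), Prol1 (0.02) and Ano1 (0.14). Of 10 granular duct markers 7 rose and 1 fell, with summed levels of 11.04 on both stem cell arrays and 8.71 and 8.72 on the others. Of 10 basal and myoepithelial markers 6 rose, with summed levels of 7.74 to 7.77 and 6.42 to 6.51. The other 4 did not pass, Trp63 at 0.55 and the contractile genes Acta2, Myh11 and Cnn1 at -0.11, -0.21 and -0.37. Of 7 tested endothelial markers 4 rose and 1 fell, 5 of 5 erythroid markers fell, 1 of 4 leukocyte markers and 1 of 2 fibroblast markers rose. Of those called, Cd34, Ramp2 and the basal marker Lgals7 were well above background only on the stem cell arrays. The erythroid Slc4a1 was so only on the non-stem arrays. Such genes could have been called only in the direction they were. The summed levels were 4.29 to 4.41 against 4.61 to 4.70 for endothelial and 5.99 to 6.01 against 8.06 to 8.27 for erythroid markers. They were 6.06 to 6.44 against 5.40 to 5.58 for leukocyte and 4.46 to 4.57 against 3.21 to 3.32 for fibroblast markers. Bright genes weigh most in a sum. Vwf, the 1 endothelial marker that fell, had mean levels of 0.93 (stem) and 3.79 (non-stem), the brightest of its list in non-stem cells. On no array well above background were 5 of 9 leukocyte markers (Ptprc among them), 4 of 7 fibroblast markers (Col1a1 among them), 2 of 10 endothelial markers (Cdh5 and Emcn) and 1 of 6 erythroid markers. On all 4 arrays Itgam, Csf1r and Cd3e, Dcn and Col1a2, Kdr, Plvap and Vwf, and the erythroid Hba-a1, Hbb-b1, Hbb-b2 and Alas2 were. Fewer cells of a type and less RNA per cell cannot be told apart in such bulk samples, and the part of these cell types in the results was not tested.

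The signal was also dimmer in stem cells, with a 75th percentile of 30.4 and 43.3 intensity units against 74.8 and 63.0, and 35.7% and 39.0% of spots well above background against 42.3% and 41.9%. No spot was saturated, and precision was limited by there being 4 arrays. Spike-in controls, which are added in fixed amounts, were higher in stem cells after the shift to the 75th percentile for 10 of 10 probes, with a median log2 difference of 2.25 (range 0.64 to 2.59). The part of this in the results was not tested, and levels here are relative to the other genes of an array. With arrays scaled on the spike-ins instead, the median over all genes was -2.24. Then 60 of the 60 genes fell, against 96% of all genes tested.

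The promoters of the genes were also read for their sequence. RefSeq promoters of the mouse build GRCm38.p6, 250 bases before to 50 bases after a start site, were at hand for 48 of the 60 genes, 51 promoters in all. They were searched on both strands for response elements known from the unfolded protein response, the programme that raises endoplasmic reticulum capacity. The core TGACGTGG, bound by the transcription factors XBP1 and ATF6, was found in 6 of the 51 promoters (11.8%), against 0.676% of all 32851 promoters and 0.705% of the 21262 promoters of protein-coding genes. The longer endoplasmic reticulum stress elements ERSE and ERSE-II were found in 0 of the 51, and in 0.119% and 0.0365% of all promoters. TGACGTCA, the cyclic AMP response element, which overlaps the core in its first 6 letters, was in 1 promoter of the 51 (1.96%), that of Cope, against 1.79% of all. These are matches of letters, and no binding was measured. Whether they have a part in the differences between the groups was not tested.

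The 6 stretches with the core are shown because they are the ones the genes hold, each as 60 bases with the core, or its reverse complement, in capitals.
Sec16b (chr1:157506726-157506785, plus strand): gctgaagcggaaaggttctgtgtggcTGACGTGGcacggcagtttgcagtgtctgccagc
Sec24d (chr3:123267444-123267503, plus strand): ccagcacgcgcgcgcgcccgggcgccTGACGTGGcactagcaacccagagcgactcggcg
Kdelr3 (chr15:79516352-79516411, plus strand): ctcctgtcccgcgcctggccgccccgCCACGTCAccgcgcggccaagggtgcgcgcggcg
Copb1 (chr7:114254675-114254734, minus strand): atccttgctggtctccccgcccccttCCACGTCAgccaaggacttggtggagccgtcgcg
Copb2 (chr9:98563698-98563757, plus strand): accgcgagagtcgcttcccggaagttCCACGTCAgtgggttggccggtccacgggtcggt
Sec23a (chr12:59011978-59012037, minus strand): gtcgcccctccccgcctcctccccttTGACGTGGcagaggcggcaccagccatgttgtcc
The core begins 44 bases before the start site in Sec16b, 30 before it in Kdelr3, 28 in Copb1, 26 in Sec24d and 7 in Copb2, and 7 bases after it in Sec23a. Of these 6 genes 5 fell, and Sec23a did not pass. That share is close to the 52 of 60 over the whole list. Sec16b has 2 promoters in the table, and the core is in the one shown.

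The whole promoter of Lman1l, the gene with the largest difference of the 60, is shown for contrast.
Lman1l (chr9:57620725-57621024, minus strand): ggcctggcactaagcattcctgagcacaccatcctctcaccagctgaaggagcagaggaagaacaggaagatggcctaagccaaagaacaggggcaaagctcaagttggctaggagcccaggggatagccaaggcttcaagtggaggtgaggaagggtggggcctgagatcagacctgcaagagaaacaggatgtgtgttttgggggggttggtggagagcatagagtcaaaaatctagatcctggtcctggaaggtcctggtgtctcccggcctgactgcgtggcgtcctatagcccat
It holds none of the 4 motifs, so no letters are in capitals.

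Of the 8 signal recognition genes 6 fell, with a median difference of -1.03. Srpr, the receptor subunit that docks the particle, had levels of 2.61 and 2.59 (stem) against 4.60 and 5.03 (non-stem). Both stem cell arrays lay far below the others, and Srpr fell by 2.21 ± 0.20 (4.64-fold lower, adjusted p = 0.0014). Srprb, the subunit that anchors the receptor in the membrane, had levels of -0.25 and -0.36 (stem) against 1.46 and 1.93 (non-stem) and fell by 2.00 ± 0.21 (adjusted p = 0.0023). With normexp background correction, which here adds an offset of 50 intensity units, it fell by 1.27, and a second probe had a difference of -1.59 (adjusted p = 0.094 over probes). Among the particle's own proteins Srp9, which with Srp14 forms the part that pauses translation, fell by 1.41 ± 0.17. Srp72 fell by 1.13 ± 0.16, Srp14 by 0.93 ± 0.16 and Srp68 by 0.81 ± 0.16. The calls of Srp14, Srp68 and Srp72 did not hold without non-stem replicate 1 (adjusted p = 0.055 to 0.094) and without non-stem replicate 2 (0.058 to 0.074).

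Srp54a, the subunit that binds the signal peptide, did not pass, at -0.29 ± 0.17 with a 95% interval of -0.72 to 0.15 (adjusted p = 0.25). It has near-identical copies in the mouse genome, so its value is uncertain. Srp19, needed to load that subunit onto the particle's RNA, stood at -0.39 ± 0.18 (-0.83 to 0.06, adjusted p = 0.16). In both genes the stem cell arrays still lay below the others, by little. With normexp background correction Srp19 passed, at -0.60 (adjusted p = 0.015).

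Of the 11 translocon genes 10 fell, with a median of -1.35. Sec61a1, which forms the channel, had levels of 5.87 and 6.02 (stem) against 7.64 and 7.50 (non-stem). It fell by 1.62 ± 0.16 (3.07-fold, adjusted p = 0.002), and the small channel subunits Sec61b and Sec61g fell by 1.75 ± 0.18 and 1.07 ± 0.17. All 3 probes of Sec61b were lower, at -1.75, -1.81 and -1.63. Sec61a2, a second channel gene, had levels of -0.69 and -0.85 (stem) against -1.10 and -1.14 (non-stem) and did not pass (0.35 ± 0.16, interval -0.04 to 0.74, adjusted p = 0.15). It was the 1 gene of the 60 whose stem cell arrays both lay above the others, and with spike-in scaling its difference was -1.88. The log2 ratio of Sec61a1 to Sec61a2, which does not depend on a shift of a whole array, was 6.56 and 6.88 (stem) against 8.73 and 8.64 (non-stem).

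Tram1, a membrane protein that helps chains move from the channel into the bilayer, had levels of 1.45 and 1.20 (stem) against 3.64 and 3.86 (non-stem). Its fall of 2.43 ± 0.18 (5.37-fold, adjusted p = 0.0008) was the largest of the translocon genes. The 4 genes of the translocon-associated protein complex fell as well, Ssr4 by 1.80 ± 0.15, Ssr3 by 1.70 ± 0.15, Ssr2 by 1.29 ± 0.18 and Ssr1 by 1.07 ± 0.18. One probe of Ssr1 did not pass, at -0.67 (adjusted p = 0.087 over probes). Sec63, which recruits the lumenal chaperone that pulls chains inward, fell by 1.35 ± 0.19, and its partner Sec62 by 0.67 ± 0.17 (adjusted p = 0.037). The calls of Sec61g, Ssr1 and Sec62 were lost with 1 or the other non-stem array removed (adjusted p = 0.063 to 0.17), and those of Ssr2 and Sec63 without non-stem replicate 2 (0.055 and 0.058). Sec62 also did not pass without stem replicate 1 (adjusted p = 0.068), with the percentile over detected probes (0.051) or with the replicate number as a block (0.051).

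In signal peptidase 4 of 5 genes fell. Spcs3, an accessory subunit, had levels of 2.31 and 2.53 (stem) against 4.78 and 4.62 (non-stem) and fell by 2.28 ± 0.17 (4.85-fold, adjusted p = 0.00081). Spcs2 and Spcs1, the other accessory subunits, fell by 1.44 ± 0.17 and 1.27 ± 0.15. A second probe of Spcs2 had a difference of -0.07 (adjusted p = 0.79 over probes), so its probes disagree, and their mean was -0.75.

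The catalytic subunit is encoded by a pair of genes with different values. Sec11c had levels of 2.46 and 2.42 (stem) against 4.17 and 4.22 (non-stem) and fell by 1.76 ± 0.15 (adjusted p = 0.0012). Sec11a had levels of 4.32 and 4.46 (stem) against 4.47 and 4.51 (non-stem), a difference of -0.10 ± 0.15 with an interval of -0.49 to 0.28 (adjusted p = 0.64). With normexp background correction Sec11a passed, at -0.52 (adjusted p = 0.024), and with the 75th percentile taken over detected probes its difference was 0.04. The log2 ratio of Sec11c to Sec11a was -1.86 and -2.04 (stem) against -0.30 and -0.29 (non-stem), 3.15-fold smaller in stem cells (2.67-fold with normexp).

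Of the 13 COPII genes 10 fell, with a median of -1.54, the same with Sec16b at its bound. Over the other 12 the differences ran from -3.61 to -0.12. Sec16b, a scaffold protein of exit sites, had levels of -3.81 and -3.72 (stem) against 1.02 and 0.89 (non-stem) (probe at chr1:159498416-159498475, mm9). It was not well above background on either stem cell array. Against the lowest signals that were, it was 9.51-fold lower in stem cells, in the main setting only. This bound is approximate. On stem replicate 1 the lowest such signal was -1.65, yet Sec24d at -1.20 was not well above background there. The adjusted p = 0.00017 of limma for Sec16b refers to the measured signals and not to this bound. With normexp its difference was -1.29. A second probe was well above background on 1 array, at -3.71 and -4.25 (stem) against -0.79 and -4.69 (non-stem), and was not tested. Sec16a, the other scaffold gene, had levels of 3.62 and 3.47 (stem) against 5.19 and 5.14 (non-stem) and fell by 1.62 ± 0.16 (3.08-fold, adjusted p = 0.0018), and the ratio of Sec16b to Sec16a changed direction between the settings, at -3.10 on the log2 scale with the main setting and 0.66 with normexp.

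Sec23 and Sec24 proteins pair to form the inner layer of the coat. Sec23b had levels of 3.67 and 3.48 (stem) against 6.77 and 6.89 (non-stem) (probe at chr2:144416111-144416170, mm9) and fell by 3.26 ± 0.16 (9.55-fold, adjusted p = 0.00029). Its paralog Sec23a had levels of -1.88 and -1.72 (stem) against -1.83 and -1.51 (non-stem), which overlapped. The difference of Sec23a was -0.13 ± 0.18, with an interval of -0.58 to 0.33 (adjusted p = 0.62), and it was well above background on 3 arrays. It turned positive with normexp (0.15), with the percentile over detected probes (0.01) and without non-stem replicate 2 (0.03), without passing. The log2 ratio of Sec23b to Sec23a was 5.55 and 5.20 (stem) against 8.60 and 8.40 (non-stem), 8.74-fold smaller in stem cells (13.1-fold with normexp).

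Sec24 proteins select the cargo, and the 4 genes differed among themselves. Sec24d had levels of -1.20 and -1.40 (stem) against 2.32 and 2.30 (non-stem) (probe at chr3:123068106-123068165, mm9). It was well above background on stem replicate 2 but not on stem replicate 1, and fell by 3.61 ± 0.16 (adjusted p = 0.00023), or by 1.98 with normexp. Sec24a, detected on the same 3 arrays, had levels of -2.39 and -1.18 (stem) against 0.82 and 0.72 (non-stem) and fell by 2.56 ± 0.39 (adjusted p = 0.0077), the widest SE of the 60. Its difference was -0.85 with normexp, -1.93 as the mean of its probes, -1.95 without stem replicate 1 and -3.16 without stem replicate 2. Sec24c had levels of 5.80 and 5.95 (stem) against 6.51 and 6.31 (non-stem) and did not pass (-0.53 ± 0.17, adjusted p = 0.059). It passed with normexp (-0.99, adjusted p = 0.001), with the filter on all 4 arrays (adjusted p = 0.028) and with an intensity trend (adjusted p = 0.00017). Sec24b had levels of 2.31 and 2.45 (stem) against 2.60 and 2.40 (non-stem), which overlapped, and a difference of -0.12 ± 0.16 (-0.53 to 0.29, adjusted p = 0.6). It was above 0 with quantile normalization (0.00417) and with the percentile over detected probes (0.02). The log2 ratio of Sec24d to Sec24b was -3.51 and -3.85 (stem) against -0.28 and -0.10 (non-stem), 11.2-fold smaller in stem cells (2.95-fold with normexp).

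The rest of the COPII coat lay between these. Sec31a and Sec13, which build its outer cage, fell by 1.54 ± 0.15 and 1.97 ± 0.17. Preb, the exchange factor that starts coat assembly by activating Sar1, fell by 1.36 ± 0.16, and the mean difference over its probes was -1.95. The Sar1 genes themselves had levels of 4.52 and 4.55 (stem) against 5.57 and 5.42 (non-stem) for Sar1a, and 2.48 and 2.68 (stem) against 3.42 and 3.48 (non-stem) for Sar1b. They fell by 0.96 ± 0.16 and 0.87 ± 0.16 (1.94-fold and 1.83-fold). The calls of Sar1a, Sar1b and Sec24a were lost with 1 or the other non-stem array removed (adjusted p = 0.058 to 0.096).

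**Figure D2:**
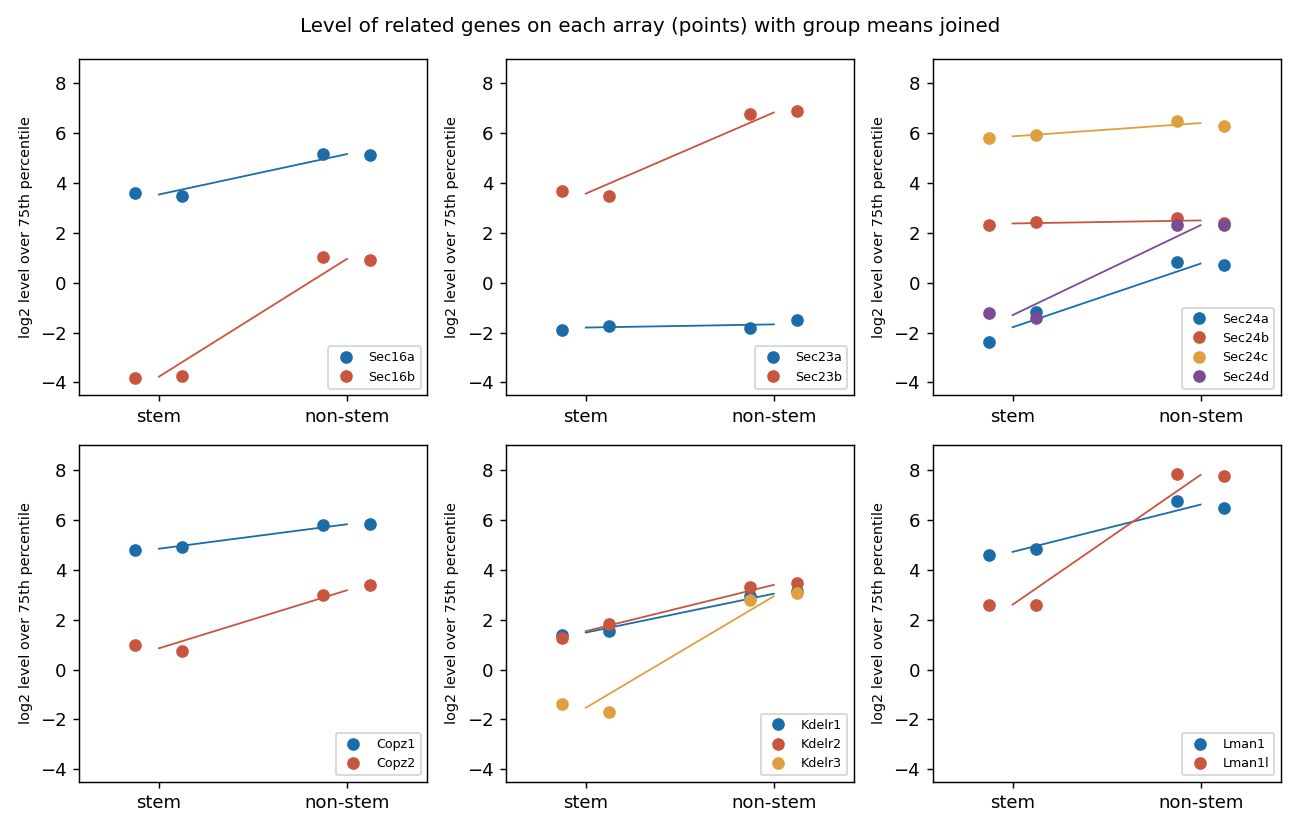
Log2 level over the array's 75th percentile on each of the 4 arrays (points) for 6 groups of related genes, with lines joining the group means. The steep lines belong to Sec16b, Sec23b, Sec24d, Kdelr3 and Lman1l, and the nearly flat ones to Sec23a and Sec24b. Levels of different genes come from different probes, so only the slopes compare, and the stem points of Sec16b and 1 stem point each of Sec23a, Sec24a and Sec24d were not well above background.

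In the COPI coat all 7 genes fell, within -2.33 to -0.98 and with a median of -1.48. Copa, the alpha subunit, had levels of 3.97 and 3.94 (stem) against 5.26 and 5.63 (non-stem) and fell by 1.49 ± 0.18 (adjusted p = 0.004). Arcn1, the delta subunit, fell by 1.54 ± 0.16, Cope, the epsilon subunit, by 1.48 ± 0.18, Copb2 by 1.42 ± 0.15 and Copb1 by 1.30 ± 0.18, each 2.46-fold to 2.91-fold. A second probe of Arcn1 had a difference of -0.54 and did not pass (adjusted p = 0.06 over probes). The zeta subunit has a pair of genes. Copz2 had levels of 0.97 and 0.73 (stem) against 2.98 and 3.38 (non-stem) and fell by 2.33 ± 0.20 (5.02-fold, adjusted p = 0.0013), and its other probe gave -2.33. Copz1 had levels of 4.79 and 4.91 (stem) against 5.82 and 5.84 (non-stem) and fell by 0.98 ± 0.15 (1.97-fold, adjusted p = 0.008). The log2 ratio of Copz2 to Copz1 was -3.82 and -4.18 (stem) against -2.84 and -2.46 (non-stem), 2.54-fold smaller in stem cells (1.47-fold with normexp). The call of Copz1 was lost with 1 or the other non-stem array removed (adjusted p = 0.058 and 0.069), and that of Copb1 without non-stem replicate 2 (0.059).

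Of the 14 cargo receptor genes 13 fell, with a median of -1.57. Lman1l, which encodes a protein related to the lectin receptor Lman1, had the largest difference of the 60. Its levels were 2.60 and 2.60 (stem) against 7.87 and 7.76 (non-stem) (probe at chr9:57454840-57454899, mm9), and it fell by 5.21 ± 0.15 (37-fold, adjusted p = 0.00017). A second probe gave -5.06. Lman1 itself, which with Mcfd2 exports clotting factors in humans, had levels of 4.61 and 4.83 (stem) against 6.76 and 6.48 (non-stem) and fell by 1.90 ± 0.18 (3.73-fold, adjusted p = 0.0018). Mcfd2 fell by 1.73 ± 0.18 and Surf4, a receptor for many soluble cargoes, by 1.54 ± 0.18. The related lectin gene Lman2 fell by 0.63 ± 0.15 (adjusted p = 0.032), with a second probe at -0.67 that did not pass (adjusted p = 0.1 over probes). The log2 ratio of Lman1l to Lman1 was -2.01 and -2.23 (stem) against 1.10 and 1.28 (non-stem), 9.92-fold smaller in stem cells (8.13-fold with normexp).

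The Kdelr genes encode receptors that return resident proteins to the endoplasmic reticulum in COPI vesicles. Kdelr3 had levels of -1.38 and -1.69 (stem) against 2.80 and 3.08 (non-stem) (probe at chr15:79357588-79357647, mm9) and fell by 4.48 ± 0.19 (22.3-fold, adjusted p = 0.00023), or by 2.64 with normexp. Kdelr1 had levels of 1.40 and 1.56 (stem) against 2.94 and 3.15 (non-stem) and fell by 1.56 ± 0.17, and Kdelr2 had levels of 1.27 and 1.81 (stem) against 3.32 and 3.48 (non-stem) and fell by 1.86 ± 0.23. In all of these genes the groups did not overlap. The ratio of Kdelr3 to Kdelr1 was 7.55-fold smaller in stem cells and that of Kdelr3 to Kdelr2 6.13-fold smaller (2.13-fold and 1.77-fold with normexp).

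Tmed proteins span the membrane, bind both coats and carry cargo such as lipid-anchored proteins. Tmed3 had levels of 5.80 and 6.09 (stem) against 8.44 and 8.34 (non-stem) and fell by 2.45 ± 0.17 (5.46-fold, adjusted p = 0.00074). Tmed2 fell by 1.57 ± 0.17, Tmed10 by 1.14 ± 0.17 and Tmed9 by 0.77 ± 0.17. Tmed7 was not well above background in stem cells. In the main setting its bound was 1.84-fold lower there, with its own dim signal used on stem replicate 2. That bound depends on the setting, since with normexp the difference of Tmed7 was -0.03 and did not pass (adjusted p = 0.87).

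Tmed5 was the exception. Its brightest probe had levels of 1.65 and 1.21 (stem) against 0.75 and 1.35 (non-stem), which overlapped, and a difference of 0.38 ± 0.27 (-0.29 to 1.05, adjusted p = 0.32). Of its 5 tested probes 3 were lower in stem cells, at -0.83, -1.04 and -1.09 (adjusted p = 0.058, 0.029 and 0.016 over probes). The remaining one gave 0.31 (adjusted p = 0.25 over probes). The mean of its tested probes was -0.45 (adjusted p = 0.068), so no direction is given for the gene. It was the 1 gene of the 30 with several tested probes whose probes differed in sign. The calls of Tmed7, Tmed9, Tmed10 and Lman2 were lost with 1 or the other non-stem array removed (adjusted p = 0.055 to 0.15), and that of Lman2 also without stem replicate 1 (0.055) and with the replicate number as a block (0.058).

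Sec22b, a SNARE that helps vesicles fuse between the endoplasmic reticulum and the Golgi, fell by 1.38 ± 0.19 (adjusted p = 0.0052). Golga2, a tether on the entry face of the Golgi, fell by 0.72 ± 0.16 (adjusted p = 0.023). The call of Golga2 was lost with 1 or the other non-stem array removed (adjusted p = 0.095 and 0.12), and that of Sec22b without non-stem replicate 2 (0.056).

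**Figure D3:**
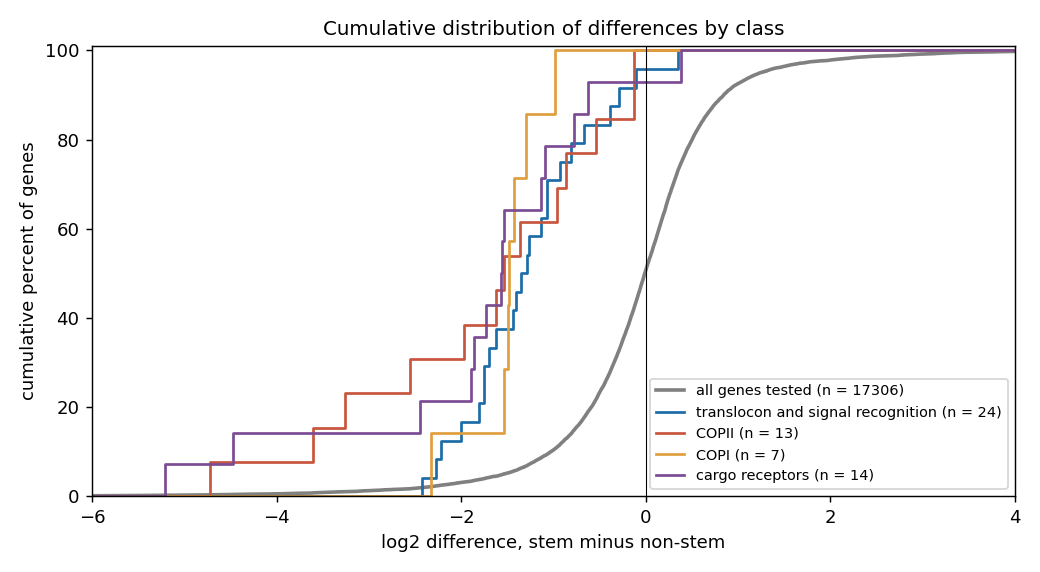
Cumulative percent of genes against the log2 difference, stem minus non-stem, for the 4 classes (24 translocon and signal recognition genes with signal peptidase, 13 COPII, 7 COPI and 14 cargo receptor genes) and for all 17306 genes tested. Over most of their height the 4 coloured curves lie left of the grey one, with class medians of -1.32, -1.54, -1.48 and -1.57, and the COPII and cargo receptor curves reach farthest to the left.

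By class, translocon and signal recognition genes, signal peptidase included, had a median of -1.32 with 20 of 24 lower, COPII -1.54 with 10 of 13, COPI -1.48 with 7 of 7 and cargo receptors -1.57 with 13 of 14. Differences between classes were not tested. The pairs of related genes were singled out after their values were seen, so the ratios above are descriptions without a test. Each of the 10 ratios has the gene with the lower difference on top. That they were smaller in stem cells in the main setting thus follows from this choice. In all 10 both stem cell arrays lay below both others in the main setting. With normexp 9 of the 10 were still smaller in stem cells, that of Sec16b to Sec16a being the exception. The probes of the 16 pairs of related genes compared matched each other over 19 to 29 of 60 bases at best, while their match to whole transcripts was not analysed here.

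Of 63 tested partners of these genes in the same pathway 36 fell and 3 rose (57.1% and 4.76%), with a median of -0.75. These partners include Hyou1, which fell, and Wrb, which did not pass. Both were well above background only on the non-stem arrays, so they entered the test through those alone. The lists of partners too were chosen with earlier results of these data known. Among 17 partners of the exit sites 10 fell and 1 rose, among 14 of COPI 8 fell, among 15 tethers 10 fell and 1 rose, and among 17 genes of translocation and membrane insertion 8 fell and 1 rose. Creb3l1, a transcription factor made at the endoplasmic reticulum, had levels of 3.53 and 3.47 (stem) against 7.17 and 7.42 (non-stem) and fell by 3.79 ± 0.17 (adjusted p = 0.00023). Of the exit site partners Mia3, which helps load large cargo such as collagen, fell by 1.71 ± 0.16 and Ergic2 by 1.44 ± 0.15.

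Arf4, a GTPase of the Golgi, fell by 2.15 ± 0.20, and Arfgap3 and Arfgap1, which switch such GTPases off, by 2.22 ± 0.17 and 1.12 ± 0.16. The Golgi proteins Gorasp2, Gorasp1 and Uso1, which tether vesicles or stack cisternae, fell by 1.94 ± 0.21, 1.81 ± 0.22 and 1.31 ± 0.16. Among the helpers of translocation Dnajc3 and Sil1, both of which act on the lumenal chaperone BiP, fell by 1.92 ± 0.17 and 1.39 ± 0.16. Hyou1, which acts on it too, passed as lower (adjusted p = 0.0015) but was not well above background in stem cells, so no size is given. The risers were Cnih4 (0.73 ± 0.17), Trappc8 (0.83 ± 0.17) and Tram2 (0.79 ± 0.20), the last a relative of Tram1. They are named because they were the only ones, after their values were seen.

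**Figure D4:**
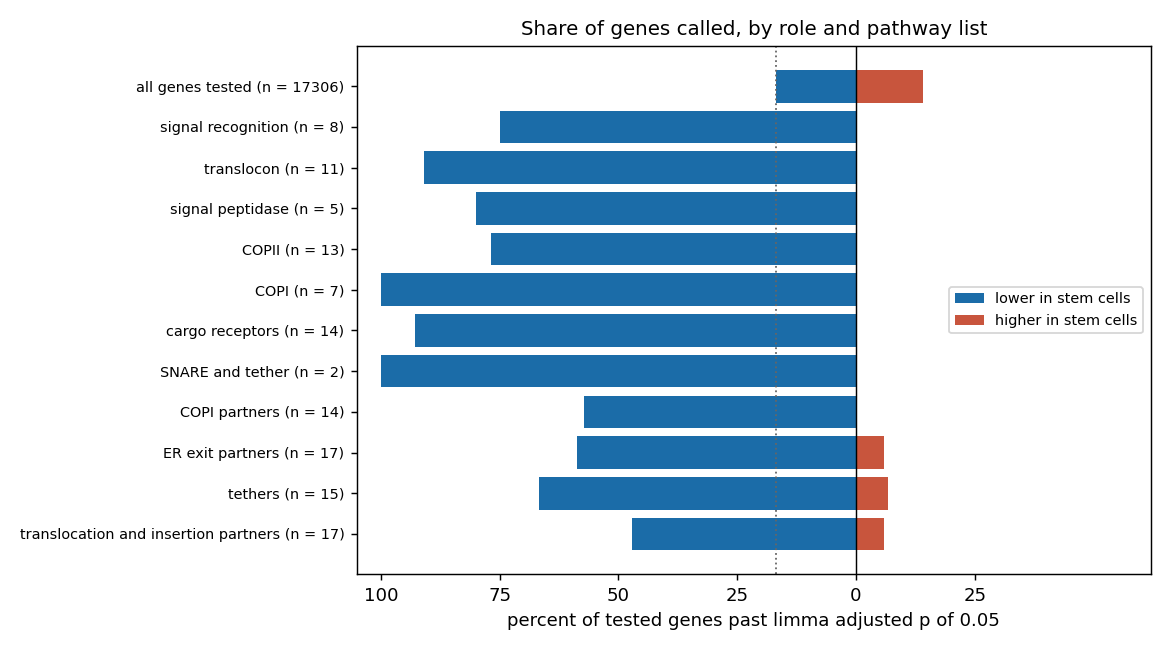
Percent of tested genes that passed the test as lower (blue, left of 0) or higher (red, right of 0) in stem cells, for all genes tested, for each role of the 60 genes and for the 4 lists of partners, with the number tested in brackets. The dotted line marks the 16.8% of all genes that were lower, and each role and list lies beyond it, with 47.1% of the translocation and insertion partners as the lowest share.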

How the data were processed

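RNA of sorted cells was labelled with Cy3 after amplification, per the labels' protocols, and read on 4 one-colour Agilent arrays on 1 slide. Each deposited scanner file gives a linear intensity per spot, background-corrected by Agilent Feature Extraction 10.7.3.1 with probe positions on mm9, per the file headers, while the submitters' processing notes name version 9.1. The deposited series table holds the authors' log2 values, whose centring is unknown. Their differences between arrays correlated at 1 with those computed here, and over the 60 genes the group differences had a slope of 1 on those computed here, so scale and direction match while the column medians were -0.28, -0.55, -0.83 and -0.76.

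After control and outlier spots had been removed, log2 signals of replicate spots were averaged per probe. The 75th percentile of each array, over its non-control probes, was then subtracted. A gene, by the name in the files, took its brightest probe and was tested where that probe was well above background on at least 2 arrays. Groups were compared with the moderated test of limma 3.58.1, run under R 4.3.3 (two-sided, Benjamini-Hochberg over 17306 genes, threshold 0.05, 5.55 degrees of freedom). Of these, 2453 were higher and 2907 lower in stem cells. Bounds set the brighter group against each dim array's lowest signal well above background, or against the gene's own signal where that was higher. They hold for the main setting only and are approximate. An exact permutation test of 2 against 2 arrays cannot go below p = 0.333, so none was used.

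The genes, roles and lists were chosen with earlier results of these data known. Any of the 60 could be named, and of each list of partners the 3 of smallest p, with the 3 that rose added after their values were seen. Promoters are RefSeq's (GRCm38.p6). The alternatives were quantile normalization, normexp with an offset of 50, a percentile over detected probes, the deposited values, other filters, an intensity trend with robust variances, a replicate block, averaging all tested probes of a gene, and leaving out each array. Spike-in scaling and a crossed block were added after seeing the data. The paralog ratios, each with the gene of lower difference on top, were likewise chosen after seeing the values. The promoters and paralogs were described without tests. The replicate numbers were not taken to pair the samples.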

Additional observations from a re-analysis of the deposited data

How the results depend on the processing

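The count of 52 lower members was 50 to 54 with quantile normalization, normexp, the percentile over detected probes, the deposited values, an intensity trend, the replicate block and the mean of probes, and 49 of 55 with the filter on all 4 arrays. It fell to 32 with no filter, which tests 36163 genes and calls 850 higher and 769 lower. With 1 array left out it was 33 to 52, lowest without non-stem replicate 2, and the number of members higher stayed at 0 throughout. With 1 array left in a group, the fit takes its spread from the other group. Over all genes 700 to 2882 were then higher and 921 to 3561 lower. Of translocon and signal recognition genes 20 were lower, 11 with no filter, and 12 to 20 with 1 array left out. Over the same fits COPII counts were 7 to 10, COPI 5 to 7 and cargo receptors 9 to 13.

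Scaling moved the split over all genes. Of calls 45.8% were higher, against 25.2% with normexp (1593 higher, 4738 lower), 59.5% with the percentile over detected probes and 0.812% with spike-in scaling (136 higher, 16615 lower). The median over all genes was 0.13 with the percentile over detected probes, and the median over the 60 genes was then -1.29. Differences that changed sign were those of genes that had not passed, Sec11a (0.0371), Sec23a (0.0129) and Sec24b (0.0186) with that percentile, Sec23a with normexp (0.15) and with 1 array left out (from -0.29 to 0.0304, above 0 without non-stem replicate 2), Sec24b with quantile normalization (0.00417), Tmed5 with the mean of its probes (-0.45), and Sec61a2 (-1.88) and Tmed5 (-1.84) with spike-in scaling. The cause was not tested.

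With the replicate number as a block 2376 genes were higher and 2964 lower, with 50 members lower, all among the 52. The labels do not say that the numbers pair the samples, and deviations of same-numbered arrays correlated at -0.10. With the numbers crossed, 2113 were higher, 2445 lower and 52 members lower. Sec16b and Tmed7, not well above background on either stem cell array, have bounds in place of a size, and the sizes of Sec24a and Sec24d rest on 1 stem cell array above background.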
